A study of Homo sapiens with 14 samples.

Results

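Expression of 52 cell cycle and DNA replication genes was examined in SH-EP, a human neuroblastoma line long used in culture. The genes were listed by name for their textbook roles, with earlier results of these data known. All 52 symbols were found among the 61533 genes of the count table. They form 2 classes. The G1/S and replication class has 32 genes (D and E cyclins and their kinases, E2F factors, origin licensing, helicase activation and the replication fork). The mitotic class has 20 genes (A and B cyclins, CDK1, CDC25 phosphatases, mitotic kinases, the spindle checkpoint and chromosome proteins). Of these, 51 passed the filter on low counts and were tested among 16056 genes. CCND2, a D cyclin gene, had 0 reads in all 11 libraries and was not tested.

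All cells expressed n-Myc, the protein of the MYCN oncogene. SPARK-ON cells come from a single clone and carry n-Myc in a form that, per the series design, phase separates when lenalidomide is added while its concentration stays the same. Control cells carry n-Myc without SPARK-ON and serve to measure what lenalidomide does by itself. Lenalidomide is a small molecule that binds cereblon, the product of CRBN, and DMSO is its solvent. The groups were SPARK-ON cells with lenalidomide (3 libraries), SPARK-ON cells in DMSO (3 libraries), control cells with lenalidomide (2 libraries) and control cells in DMSO (3 libraries). No dose or time is given in the labels, and baseline SH-EP cells were not analysed here.

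Cells commit to division in late G1, when cyclin D with CDK4 or CDK6 and cyclin E with CDK2 phosphorylate RB1 and release E2F factors, which switch on the genes of DNA synthesis. Origins are licensed when ORC, CDC6 and CDT1 load the MCM helicase, and CDC45 and GINS then turn it on. Mitotic genes are switched on later, largely through MYBL2 and FOXM1, and peak in G2 and M. MYCN is known in neuroblastoma for driving cells into S phase. The levels below are averages over whole cultures, in which fewer cells of a cycle stage and less RNA per cell cannot be told apart.

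Total counts ran from 6614671, in SPARK-ON lenalidomide replicate 3, to 21511684, and a count of 0 allowed up to 0.143 to 0.441 CPM in a library (3 reads, counting error only). CPM, the unit of every level below, is a gene's count relative to the TMM-scaled total of its library. Levels of MYCN were 2420 to 2618 CPM with lenalidomide and 2186 to 2398 CPM in DMSO in SPARK-ON cells. In control cells they were 2330 to 2762 CPM with lenalidomide and 2089 to 2615 CPM in DMSO, and MYCN passed the test in no comparison. MYC was called higher in SPARK-ON than in control cells with lenalidomide, at 1.02 (SE 0.26, adjusted p = 0.0042), and CRBN was lower, at -0.46 (SE 0.08, adjusted p = 0.000126) with lenalidomide and -0.56 (SE 0.07, adjusted p = 3.72e-06) in DMSO on the log2 scale. MYC had only 52 to 122 reads in a library. In DMSO its reads were 58, 95 and 117 in SPARK-ON libraries, against 65, 74 and 81 in control libraries. SH-EP is a mesenchymal type of neuroblastoma, and all 10 markers of that type averaged at least 1 CPM, while the adrenergic markers PHOX2A, ISL1 and CHGA had 0 reads. Other adrenergic markers were expressed, GATA2 at 20.7 to 25.5 CPM in SPARK-ON cells, against 10.4 to 14.0 CPM in control cells, and GATA3 at 4.74 to 6.90 CPM in SPARK-ON cells, against 6.26 to 8.73 CPM in control cells. The lines differed in several markers. The mesenchymal markers summed to 1480 to 1660 CPM in SPARK-ON libraries, against 2822 to 3047 CPM in control libraries. VIM and CD44 make up most of that sum, and FN1 went the other way, at 119 to 157 CPM in SPARK-ON cells, against 58.3 to 104 CPM in control cells. The 5 epithelial markers, mainly KRT8 and KRT18, summed to 45.8 to 59.9 CPM in SPARK-ON libraries and 13.3 to 19.3 CPM in control libraries. The 5 endothelial markers summed to 2.51 to 6.85 CPM in SPARK-ON libraries and 1.12 to 2.74 CPM in control libraries. Of the 52 members, 18 share exonic bases with another gene. For CDK4 and CCNE2 this is over 25% of the bases, and whether reads were counted by strand is not stated. Rows of named pseudogenes exist for 13 members and hold at most 0.217% of a member's reads. The part of the marker differences in the results between lines was not tested, and the clone and SPARK-ON itself cannot be told apart.

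The libraries of the control line were less alike than those of the SPARK-ON line. Replicates differed with a common coefficient of variation of 4.71% in SPARK-ON cells and 12.9% in the control line. Among the 51 tested members, the deviation of control DMSO replicate 1 from the other 2 libraries of its group fell with the length of the longest annotated transcript (r = -0.83 across members, Pearson, on log2 length). Its lowest member was MKI67, at -0.89 on the log2 scale. Control lenalidomide replicate 2 showed the same slope against replicate 1 (r = -0.68), with CENPE lowest at -0.62. Its group has 2 libraries, so replicate 1 mirrors it (r = 0.68), and which of them deviates cannot be told. The r of the 6 SPARK-ON libraries ran from -0.38 to 0.38. These are descriptions across genes that share libraries, not tests. Differences between lines for the long transcripts of CENPE, MKI67, TOP2A, CDK6 and POLE therefore rest on control libraries that disagree, and the part of transcript length in them was not tested.

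**Figure D1:**
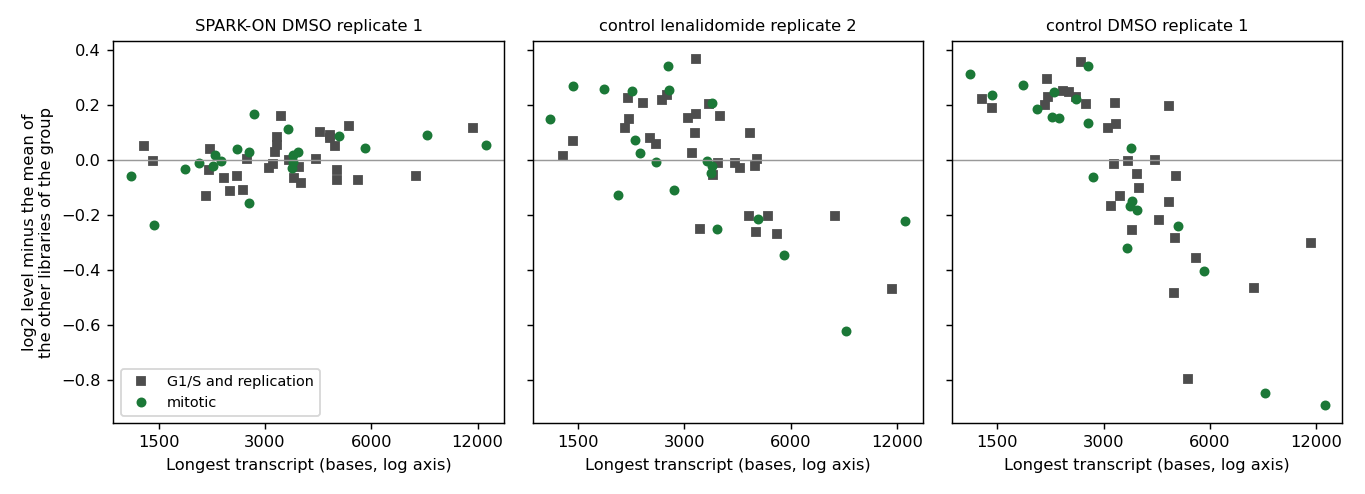
Deviation of each tested member from the mean of the other libraries of its group (log2, vertical axis) against the length of its longest annotated transcript (bases, log axis), in 3 libraries. Points are genes. In control DMSO replicate 1 and control lenalidomide replicate 2 long transcripts lie low, down to -0.89 for MKI67 and -0.62 for CENPE, while in SPARK-ON DMSO replicate 1 no such slope appears (r = 0.38). Control lenalidomide replicate 2 is set against replicate 1 alone, which mirrors it.

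None of the 51 tested cell cycle genes passed the test with lenalidomide over DMSO in SPARK-ON cells, the comparison in which n-Myc phase separation is induced. With edgeR's quasi-likelihood test and an adjusted p (Benjamini-Hochberg) below 0.05 as the threshold for a call, 0 members were called, and 0 had an unadjusted p below 0.05. The share of all genes at that unadjusted p is not given here, so the unadjusted count cannot be set against it. In the background 11 of 16056 genes (0.0685%) were called. DESeq2 called 50 genes and limma-voom 14, with 0 members in each. The median log2 change was -0.03 over the members, -0.02 for the 31 G1/S and replication members and -0.06 for the 20 mitotic members, beside 0.01 for all genes tested. There were 12 positive and 39 negative estimates, and they ran from -0.15 to 0.07. The 95% intervals of all 51 members stayed within a change of 1.5-fold, and those of 44 stayed within 1.25-fold. The widest limits were -0.50 for CENPE, a kinesin of the centromere, and 0.44 for E2F2, an E2F factor at 6.32 to 9.51 CPM in SPARK-ON cells, against 5.32 to 10.3 CPM in control cells. A missed threshold does not show that a gene stayed the same, but changes larger than these limits are outside the intervals. The p-values and intervals come from the fit of all 11 libraries, with a common coefficient of variation of 9.40%. In the 6 SPARK-ON libraries alone it was 4.71%.

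The members with the smallest p in this comparison were CCNB2, CDC45, MCM4 and TPX2. CCNB2 encodes cyclin B2, a partner of CDK1, and was at 122, 115 and 128 CPM with lenalidomide, against 135, 127 and 136 CPM in DMSO. Its SPARK-ON treated and untreated libraries overlapped, and the log2 change was -0.13 (SE 0.08, adjusted p = 0.973). CDC45, a subunit of the active helicase, was at 51.3, 44.9 and 49.0 CPM with lenalidomide, against 54.6, 53.0 and 53.1 CPM in DMSO. Here the treated libraries all lay below the untreated ones, with a change of -0.15 (SE 0.09, adjusted p = 0.973). MCM4, a subunit of the helicase ring, was at 617, 609 and 618 CPM with lenalidomide, against 657, 651 and 658 CPM in DMSO. The groups did not overlap for MCM4 either, at -0.09 (SE 0.06, adjusted p = 0.973). TPX2, which activates Aurora A on the spindle, was at 287, 262 and 277 CPM with lenalidomide, against 300.3, 291 and 301 CPM in DMSO. Its change was -0.11 (SE 0.07, adjusted p = 0.973), with 0 of 3 treated libraries above the lowest untreated one. These genes were picked for their small p, and the share of all genes whose groups did not overlap was not counted. Over 20 alternative fits the lowest adjusted p was 0.141 for CCNB2, 0.274 for CDC45, 0.18 for MCM4 and 0.14 for TPX2. Fitted with the 6 SPARK-ON libraries alone, 381 of 14652 genes were called in this comparison and 0 of them were members. That share of all genes is so small that 0 calls among the members lies near it.

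In control cells lenalidomide called 0 of the 51 members, and 7 of 16056 genes (0.0436%) in the background. At an unadjusted p below 0.05 there were 0 members, and the share of all genes at that p is again not given. The median change was 0.00 for each class and for all genes. The estimates ran from -0.16 to 0.17, and 50 of 51 intervals stayed within 1.5-fold. The exception was E2F2, whose interval was -0.64 to 0.31 (log2). In the 5 control libraries alone the common coefficient of variation was 12.9%, against 9.40% in the fit of all 11. Intervals here and below that involve control cells may thus be too narrow. The smallest p belonged to CCND3, CDK1, FOXM1 and GINS1. CCND3, a D cyclin, was at 89.0 and 94.1 CPM with lenalidomide, against 91.0, 78.6 and 74.6 CPM in DMSO, a change of 0.17 (SE 0.09, adjusted p = 1). CDK1, the main mitotic kinase, was at 343 and 314 CPM with lenalidomide, against 324, 294 and 277 CPM in DMSO. The treated and untreated control libraries overlapped for both genes, and the CDK1 change was 0.14 (SE 0.08, adjusted p = 1). FOXM1, a transcription factor of mitotic genes, was at 136 and 135 CPM with lenalidomide, against 103, 128 and 129.6 CPM in DMSO, a change of 0.17 (SE 0.09, adjusted p = 1). GINS1, a subunit of the GINS complex, was at 86.9 and 97.5 CPM with lenalidomide, against 109, 93.6 and 105 CPM in DMSO, a change of -0.15 (SE 0.09, adjusted p = 1). Treated libraries lay above untreated ones for FOXM1 and overlapped with them for GINS1. Here too the share of all genes whose groups did not overlap was not counted. Without both control DMSO replicate 1 and control lenalidomide replicate 2, the CDK1 change was 0.26. Long transcripts were low in these libraries relative to the rest of their group. That fit left 1 control library with lenalidomide. In every other alternative run 0 members were called with lenalidomide.

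The response in SPARK-ON cells was then set against the response in control cells by the difference of the 2 changes. It called 0 members and 0 of 16056 genes (0%) in edgeR. An unadjusted p below 0.05 was found for 0 of 51 members and 669 of 16056 genes. The DESeq2 fit called 3 genes and 0 members, and limma-voom 0 genes. The median difference over members was -0.05, against 0.00 for all genes, and the interval stayed within 1.5-fold for 49 of 51 members. The smallest p belonged to CDK1 at -0.18 (SE 0.11, adjusted p = 1), FOXM1 at -0.20, CCNB2 at -0.17 and GINS1 at 0.19, all with adjusted p rounding to 1. CENPE had -0.31 (95% interval -0.86 to 0.23) and E2F2 0.17 (-0.48 to 0.82).

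**Figure D2:**
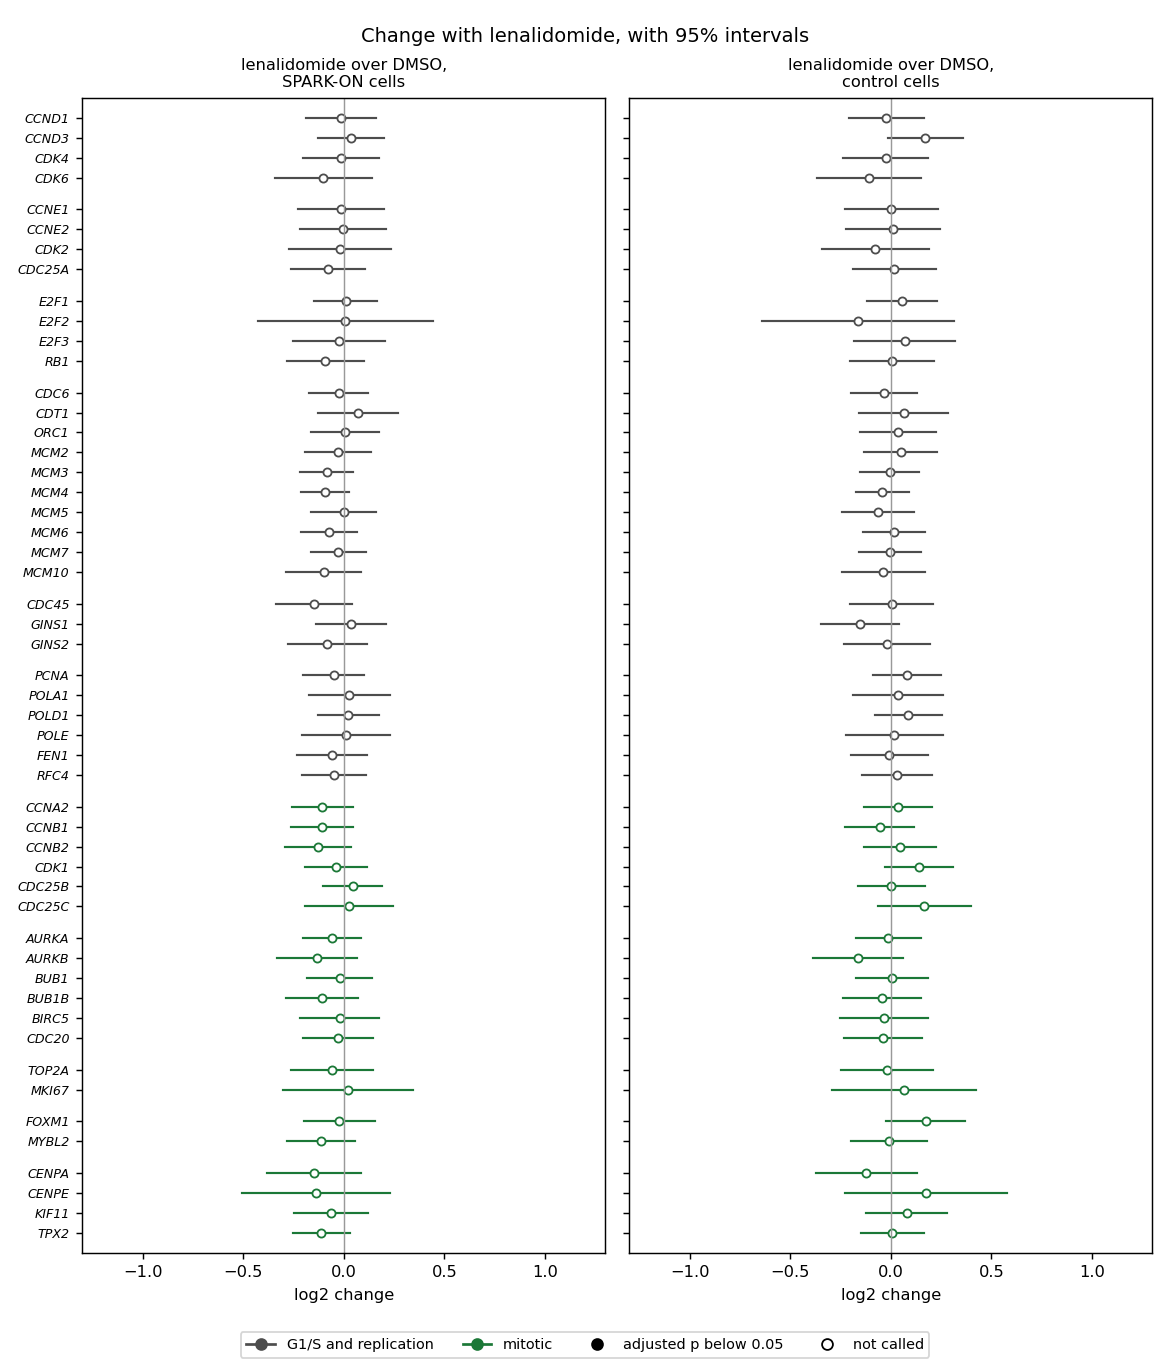
Log2 change with lenalidomide over DMSO for each of the 51 tested members (points) with its 95% interval (lines), in SPARK-ON cells on the left and control cells on the right. Genes run down the page by role, and open points did not pass an adjusted p of 0.05. All points are open, and all lie between -0.16 and 0.17.

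Between the SPARK-ON and control lines the members were called about as often as other genes. With lenalidomide in both lines, 21 of 51 members were called (41.2%), 6 higher and 15 lower in SPARK-ON cells. The background was 39.4% of genes, 19.7% higher and 19.7% lower. With DMSO in both, 21 members were called (41.2%), 8 higher and 13 lower, and the background was 41.6% of genes, 21.1% higher and 20.4% lower. The share of members called was thus near that of all genes. The comparison with lenalidomide and that in DMSO use different libraries, though they share the lines and the estimate of spread. In both, 18 members were called in the same direction, 85.7% of each list, and 0 in opposite directions, while 5235 genes were shared among all, 82.6% of those called with lenalidomide and 78.4% of those called in DMSO. With scaling by library size alone, which moved the median of all genes by 0.11 on the log2 scale with lenalidomide and 0.09 in DMSO, the split became 11 higher and 9 lower with lenalidomide and 12 higher and 7 lower in DMSO. Under that scaling CDK2, CDK6, CCNB1, CDC20, TOP2A and TPX2 lost their calls with lenalidomide, and CDK6, CDC45, GINS1, BUB1B, CDC20 and TOP2A lost theirs in DMSO. Calls were gained by E2F1, CDT1, MCM2, MCM10 and POLE with lenalidomide, and by E2F1, CDT1, PCNA and POLE in DMSO. The balance of higher and lower members therefore depends on the scaling, and each gene below is read relative to the other genes. For many genes below, all libraries of a line lay above or below those of the other line. The share of all genes for which this held was not counted, so it does not set a member apart. Of the members called in both, 10 kept their call in all 20 alternatives in each comparison. They were CCND3, CDC25A, CDC6 and ORC1, higher in SPARK-ON cells, and CCND1, POLD1, CCNA2, CCNB2, CDK1 and MYBL2, lower. How many of all called genes kept their call in every alternative was not counted.

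**Figure D3:**
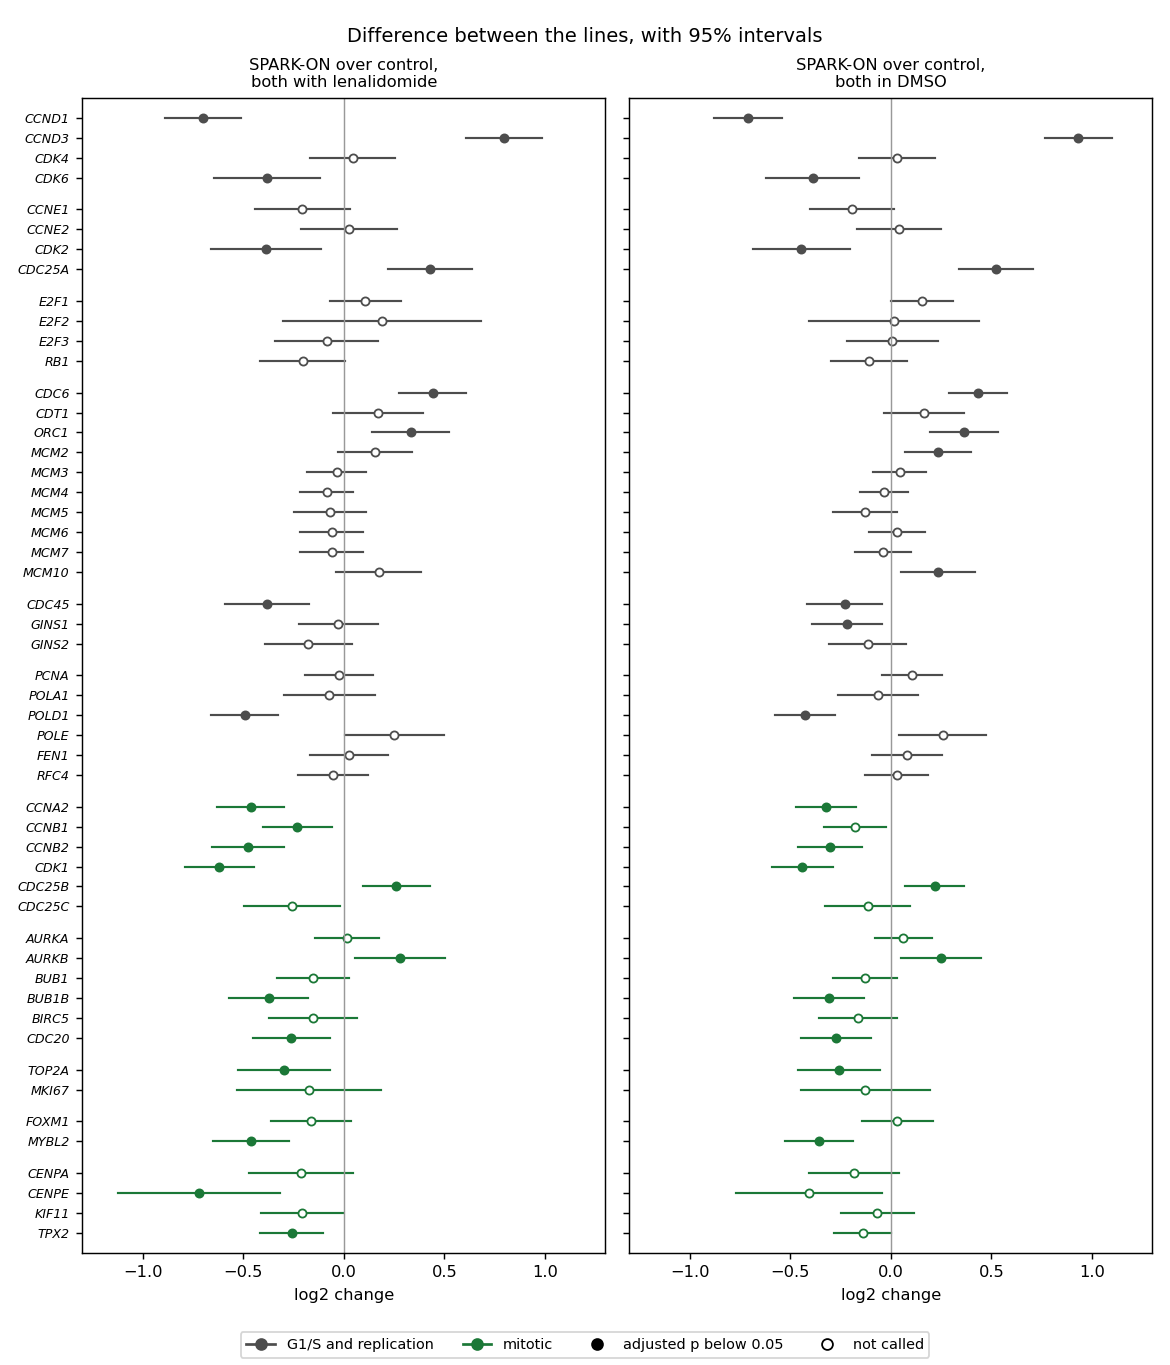
Log2 difference between SPARK-ON and control cells for each of the 51 tested members (points) with its 95% interval (lines), with lenalidomide on the left and in DMSO on the right. Genes run down the page by role, and filled points passed an adjusted p of 0.05. CCND3 lies farthest to the right in both panels (0.80 and 0.93) and most called mitotic genes lie left of 0.

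The D cyclins went opposite ways between the lines. Cyclin D1 and cyclin D3 both activate CDK4 and CDK6. CCND1 was at 64.0, 67.9 and 60.5 CPM with lenalidomide and 67.9, 63.7 and 63.0 CPM in DMSO in SPARK-ON cells, against 105 and 104 CPM with lenalidomide and 95.7, 109 and 113 CPM in DMSO in control cells. For CCND1 all 6 SPARK-ON libraries lay below all 5 control libraries, 1.62-fold lower with lenalidomide and 1.64-fold lower in DMSO. CCND1 differed by -0.70 (SE 0.09, adjusted p = 6.17e-06) with lenalidomide and -0.71 (SE 0.08, adjusted p = 1.14e-06) in DMSO. CCND3 was at 156, 162 and 159 CPM with lenalidomide and 147, 159.6 and 159 CPM in DMSO in SPARK-ON cells, against 89.0 and 94.1 CPM with lenalidomide and 91.0, 78.6 and 74.6 CPM in DMSO in control cells. Here all 6 SPARK-ON libraries lay above all 5 control libraries, 1.74-fold higher with lenalidomide and 1.91-fold higher in DMSO. CCND3 differed by 0.80 (SE 0.09, adjusted p = 1.35e-06) with lenalidomide and 0.93 (SE 0.08, adjusted p = 2.65e-08) in DMSO. CDK6 was at 58.7, 54.6 and 57.1 CPM with lenalidomide and 64.2, 61.8 and 56.8 CPM in DMSO in SPARK-ON cells, against 86.0 and 62.2 CPM with lenalidomide and 69.0, 88.3 and 82.0 CPM in DMSO in control cells. For CDK6 the lines overlapped, and within the control line its values spread from 62.2 to 88.3 CPM. CDK6 differed by -0.38 (SE 0.13, adjusted p = 0.0213) with lenalidomide and -0.39 (SE 0.11, adjusted p = 0.00867) in DMSO. With lenalidomide it was -0.13 without control lenalidomide replicate 1 and -0.60 without replicate 2 of that group. Its call did not hold without any 1 of SPARK-ON lenalidomide replicate 2 and control lenalidomide replicate 1 (adjusted p = 0.0765 to 0.483) with lenalidomide, nor without SPARK-ON DMSO replicate 3 (adjusted p = 0.0508) in DMSO. CDK4 was at 136 to 153 CPM in SPARK-ON cells, against 129 to 162 CPM in control cells and was not called, with 43.2% of its exonic bases shared with TSPAN31 on the other strand, so its counts are uncertain.

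Among the genes of cyclin E and CDK2, the phosphatase gene CDC25A was higher in SPARK-ON cells and CDK2 was lower. CDC25A, which removes inhibitory phosphates from CDK2, was at 70.03, 79.3 and 80.3 CPM with lenalidomide and 77.7, 83.3 and 81.3 CPM in DMSO in SPARK-ON cells, against 53.6 and 59.9 CPM with lenalidomide and 53.4, 53.1 and 61.9 CPM in DMSO in control cells. All 6 SPARK-ON libraries lay above all 5 control libraries. CDC25A differed by 0.43 (SE 0.10, adjusted p = 0.00217) with lenalidomide and 0.52 (SE 0.09, adjusted p = 8.71e-05) in DMSO. CDK2, the kinase partner of cyclin E, was at 21.7, 26.4 and 23.1 CPM with lenalidomide and 22.9, 25.3 and 24.2 CPM in DMSO in SPARK-ON cells, against 28.7 and 33.4 CPM with lenalidomide and 38.4, 30.7 and 29.4 CPM in DMSO in control cells. In CDK2 all 6 SPARK-ON libraries lay below all 5 control libraries. CDK2 differed by -0.39 (SE 0.13, adjusted p = 0.0253) with lenalidomide and -0.44 (SE 0.11, adjusted p = 0.00447) in DMSO, and the call with lenalidomide did not hold without any 1 of SPARK-ON lenalidomide replicates 1 and 3 and control lenalidomide replicate 2 (adjusted p = 0.0634 to 0.214). The cyclin E genes did not pass. CCNE1 was at 29.4 to 34.3 CPM in SPARK-ON cells, against 32.5 to 39.8 CPM in control cells, with a difference of -0.21 with lenalidomide and -0.19 in DMSO. CCNE2 differed by 0.03 and 0.04, and 37.1% of its exonic bases are shared with other genes, among them INTS8.

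None of the E2F and RB1 genes was called between the lines under the main scaling. E2F1, an activator of S phase genes, was at 179 to 191 CPM in SPARK-ON cells, against 155 to 183 CPM in control cells, with differences of 0.11 with lenalidomide and 0.15 in DMSO. RB1, which restrains the E2F factors, was at 107 to 120.2 CPM in SPARK-ON cells, against 112 to 142 CPM in control cells, with -0.20 and -0.11. E2F3 had -0.09 and 0.01, and E2F2 0.19 and 0.02. With library size alone as the scaling, E2F1 passed at 0.21 with lenalidomide and 0.25 in DMSO.

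Of the 10 origin licensing members, CDC6 and ORC1 were higher in SPARK-ON cells in both comparisons, MCM2 and MCM10 were higher in DMSO, and 6 were not called. CDC6 was at 149, 154 and 139 CPM with lenalidomide and 145, 150.2 and 155 CPM in DMSO in SPARK-ON cells, against 109 and 109 CPM with lenalidomide and 108, 117 and 109 CPM in DMSO in control cells. In CDC6 all 6 SPARK-ON libraries lay above all 5 control libraries, 1.36-fold higher with lenalidomide and 1.35-fold higher in DMSO. CDC6 differed by 0.44 (SE 0.08, adjusted p = 0.000212) with lenalidomide and 0.43 (SE 0.07, adjusted p = 5.95e-05) in DMSO. ORC1, the largest subunit of the origin recognition complex, was at 64.4, 60.2 and 62.7 CPM with lenalidomide and 61.9, 64.5 and 60.3 CPM in DMSO in SPARK-ON cells, against 49.1 and 50.02 CPM with lenalidomide and 44.7, 51.9 and 48.4 CPM in DMSO in control cells. For ORC1 too all 6 SPARK-ON libraries lay above all 5 control libraries. ORC1 differed by 0.33 (SE 0.09, adjusted p = 0.0073) with lenalidomide and 0.36 (SE 0.08, adjusted p = 0.00124) in DMSO. MCM2 was at 201, 187 and 183 CPM with lenalidomide and 189, 191 and 204 CPM in DMSO in SPARK-ON cells, against 174 and 168 CPM with lenalidomide and 147, 177 and 172 CPM in DMSO in control cells. In MCM2 all 6 SPARK-ON libraries lay above all 5 control libraries, and the difference was 0.16 (SE 0.09, adjusted p = 0.168) with lenalidomide and 0.24 (SE 0.08, adjusted p = 0.021) in DMSO. MCM10, which helps to start the helicase, was at 57.7, 58.6 and 61.8 CPM with lenalidomide and 66.1, 57.5 and 66.7 CPM in DMSO in SPARK-ON cells, against 56.3 and 48.9 CPM with lenalidomide and 50.2, 56.2 and 55.4 CPM in DMSO in control cells. For MCM10 all 6 SPARK-ON libraries lay above all 5 control libraries, and the difference was 0.17 (SE 0.10, adjusted p = 0.183) with lenalidomide and 0.24 (SE 0.09, adjusted p = 0.0386) in DMSO. The MCM2 call in DMSO did not hold without any 1 of SPARK-ON DMSO replicate 3 and control DMSO replicate 1 (adjusted p = 0.0684 to 0.0938), and without control DMSO replicate 1 the difference was 0.15. The MCM10 call in DMSO did not hold without any 1 of SPARK-ON lenalidomide replicates 1 and 2, SPARK-ON DMSO replicates 1 and 3 and control DMSO replicates 1 and 3 (adjusted p = 0.0502 to 0.144). MCM3, MCM4, MCM5, MCM6 and MCM7 were called in neither comparison, under any of the 3 scalings, with differences from -0.08 to -0.04 with lenalidomide and from -0.13 to 0.04 in DMSO. CDT1, the licensing factor that geminin inhibits, had 0.17 and 0.16 without a call, and passed at 0.28 and 0.26 under library size scaling.

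Helicase activation and fork genes were lower or not called. POLD1, the catalytic subunit of DNA polymerase delta, was at 92.0, 90.2 and 91.6 CPM with lenalidomide and 89.9, 91.3 and 88.4 CPM in DMSO in SPARK-ON cells, against 119 and 137 CPM with lenalidomide and 121, 121 and 121 CPM in DMSO in control cells. For POLD1 all 6 SPARK-ON libraries lay below all 5 control libraries. POLD1 differed by -0.49 (SE 0.08, adjusted p = 7.49e-05) with lenalidomide and -0.43 (SE 0.07, adjusted p = 8.92e-05) in DMSO. CDC45 was at 51.3, 44.9 and 49.0 CPM with lenalidomide and 54.6, 53.0 and 53.1 CPM in DMSO in SPARK-ON cells, against 59.7 and 66.3 CPM with lenalidomide and 69.6, 58.2 and 60.7 CPM in DMSO in control cells. Between the lines all 6 SPARK-ON libraries lay below all 5 control libraries, with -0.38 (SE 0.10, adjusted p = 0.00499) with lenalidomide and -0.23 (SE 0.09, adjusted p = 0.0433) in DMSO. The CDC45 call did not hold without control lenalidomide replicate 2 (adjusted p = 0.0608) with lenalidomide. In DMSO it was lost in 13 of 20 alternatives, among them the fits without any 1 of SPARK-ON lenalidomide replicates 1 and 3, SPARK-ON DMSO replicates 1, 2 and 3 and control DMSO replicates 1 and 3 (adjusted p = 0.0527 to 0.124). GINS1 was at 96.6, 85.1 and 89.9 CPM with lenalidomide and 90.5, 83.5 and 90.8 CPM in DMSO in SPARK-ON cells, against 86.9 and 97.5 CPM with lenalidomide and 109, 93.6 and 105 CPM in DMSO in control cells. For GINS1 the lines overlapped over all treatments, and the difference was -0.03 (SE 0.09, adjusted p = 0.841) with lenalidomide and -0.22 (SE 0.08, adjusted p = 0.0436) in DMSO. The call of GINS1 in DMSO was lost in 13 of 20 alternatives, among them the fits without any 1 of SPARK-ON lenalidomide replicates 1, 2 and 3, SPARK-ON DMSO replicates 1, 2 and 3 and control DMSO replicates 1 and 3 (adjusted p = 0.0532 to 0.17). GINS2 had -0.18 and -0.11 without a call. POLE, the catalytic subunit of DNA polymerase epsilon, was at 120.3 to 130.3 CPM in SPARK-ON cells, against 83.8 to 116 CPM in control cells. Its difference of 0.25 (SE 0.12, adjusted p = 0.0954) with lenalidomide and 0.26 (SE 0.10, adjusted p = 0.0529) in DMSO missed the threshold under the main scaling and passed with library size alone, at 0.36 and 0.35. In DMSO it also passed in DESeq2 and limma-voom, at 0.27 in each, and with lenalidomide in the fit of the groups compared alone, at 0.26. PCNA, the sliding clamp, POLA1 of the primase complex, the flap nuclease gene FEN1 and the clamp loader gene RFC4 had differences from -0.07 to 0.03 with lenalidomide and from -0.06 to 0.11 in DMSO. None of these 4 was called under the main scaling, and PCNA passed at 0.20 in DMSO with library size alone.

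**Figure D4:**
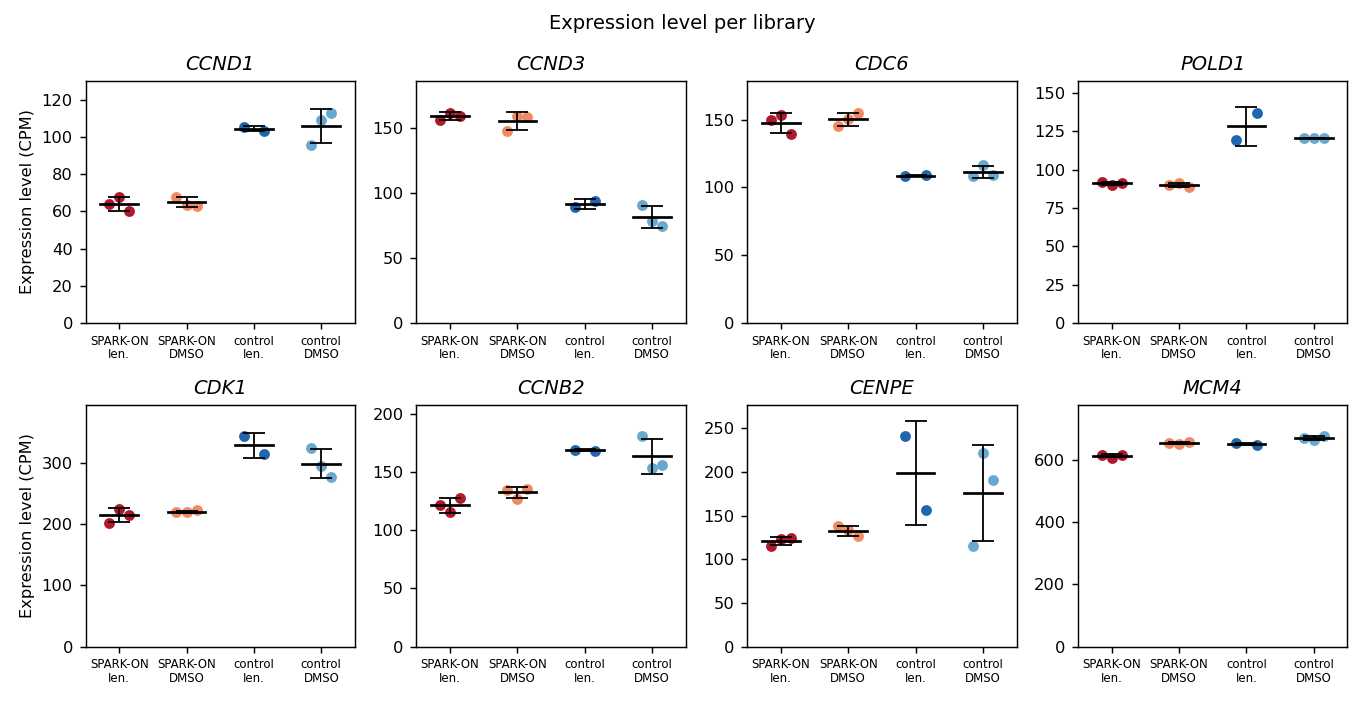
Expression level (CPM, from 0) of 8 members in each library (points) with the group mean and SD (bars) for SPARK-ON cells with lenalidomide, SPARK-ON cells in DMSO, control cells with lenalidomide and control cells in DMSO (n = 3, 3, 2 and 3). CCND3 and CDC6 are higher and CCND1, POLD1, CDK1 and CCNB2 lower in every SPARK-ON library than in every control library, CENPE spreads widely in control cells, and MCM4 lies between 609 and 677 CPM in all groups.

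CDK1, CCNB2 and CCNA2 were lower in SPARK-ON cells in both comparisons, and CCNB1 was lower with lenalidomide. CDK1 was at 202, 225 and 215 CPM with lenalidomide and 219, 219 and 222 CPM in DMSO in SPARK-ON cells, against 343 and 314 CPM with lenalidomide and 324, 294 and 277 CPM in DMSO in control cells. All 6 SPARK-ON libraries lay below all 5 control libraries, 1.53-fold lower with lenalidomide and 1.36-fold lower in DMSO. CDK1 differed by -0.62 (SE 0.08, adjusted p = 7.51e-06) with lenalidomide and -0.44 (SE 0.07, adjusted p = 8.7e-05) in DMSO. CCNB2 was at 122, 115 and 128 CPM with lenalidomide and 135, 127 and 136 CPM in DMSO in SPARK-ON cells, against 169 and 168 CPM with lenalidomide and 181, 153 and 156 CPM in DMSO in control cells. For CCNB2 as well all 6 SPARK-ON libraries lay below all 5 control libraries, and it differed by -0.48 (SE 0.09, adjusted p = 0.000211) with lenalidomide and -0.30 (SE 0.08, adjusted p = 0.00372) in DMSO. CCNA2 encodes cyclin A2, which acts from S phase into mitosis, and was at 149.5, 144 and 139 CPM with lenalidomide and 168, 150.4 and 148 CPM in DMSO in SPARK-ON cells, against 206 and 192 CPM with lenalidomide and 189, 201 and 193 CPM in DMSO in control cells. For CCNA2 all 6 SPARK-ON libraries lay below all 5 control libraries, and it differed by -0.46 (SE 0.08, adjusted p = 0.000144) with lenalidomide and -0.32 (SE 0.07, adjusted p = 0.00138) in DMSO. CCNB1, the cyclin B1 gene, was at 280.5, 268 and 275 CPM with lenalidomide and 298, 291 and 298 CPM in DMSO in SPARK-ON cells, against 314 and 330.4 CPM with lenalidomide and 374, 321 and 308 CPM in DMSO in control cells. In CCNB1 all 6 SPARK-ON libraries lay below all 5 control libraries, and the difference was -0.23 (SE 0.08, adjusted p = 0.0314) with lenalidomide and -0.18 (SE 0.07, adjusted p = 0.0595) in DMSO. The CCNB1 call with lenalidomide did not hold without any 1 of SPARK-ON lenalidomide replicates 1, 2 and 3 and control lenalidomide replicate 2 (adjusted p = 0.0589 to 0.145).

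Of the CDC25 phosphatases that activate CDK1, CDC25B was higher in SPARK-ON cells and CDC25C was not called. CDC25B was at 284, 258 and 276 CPM with lenalidomide and 264, 271 and 259 CPM in DMSO in SPARK-ON cells, against 211 and 244 CPM with lenalidomide and 232, 222 and 228 CPM in DMSO in control cells. For CDC25B all 6 SPARK-ON libraries lay above all 5 control libraries. CDC25B differed by 0.26 (SE 0.08, adjusted p = 0.014) with lenalidomide and 0.22 (SE 0.07, adjusted p = 0.018) in DMSO. Its call did not hold without any 1 of SPARK-ON lenalidomide replicate 1 and control lenalidomide replicate 1 (adjusted p = 0.0608 to 0.205) with lenalidomide, where the difference was 0.16 without control lenalidomide replicate 1, nor without any 1 of SPARK-ON DMSO replicates 1 and 2 and control DMSO replicate 2 (adjusted p = 0.0502 to 0.0724) in DMSO. CDC25C was at 25.8 to 28.6 CPM in SPARK-ON cells, against 26.2 to 35.7 CPM in control cells, with differences of -0.26 with lenalidomide and -0.11 in DMSO.

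Among mitotic kinase and checkpoint genes, BUB1B and CDC20 were lower and AURKB was higher in SPARK-ON cells. BUB1B, a checkpoint protein that restrains the anaphase promoting complex, was at 83.6, 83.1 and 90.3 CPM with lenalidomide and 93.4, 93.3 and 89.8 CPM in DMSO in SPARK-ON cells, against 120.2 and 101 CPM with lenalidomide and 105, 115 and 123 CPM in DMSO in control cells. In BUB1B all 6 SPARK-ON libraries lay below all 5 control libraries, and the difference was -0.37 (SE 0.09, adjusted p = 0.00375) with lenalidomide and -0.31 (SE 0.08, adjusted p = 0.0058) in DMSO. The call with lenalidomide did not hold without control lenalidomide replicate 1 (adjusted p = 0.0949), with a difference of -0.25 without control lenalidomide replicate 1, and 10.2% of its exonic bases are shared with the readthrough gene BUB1B-PAK6. CDC20, the activator of that complex, was at 280.1, 279.6 and 276 CPM with lenalidomide and 279.6, 282 and 290.1 CPM in DMSO in SPARK-ON cells, against 304 and 364 CPM with lenalidomide and 388, 314 and 328 CPM in DMSO in control cells. For CDC20 all 6 SPARK-ON libraries lay below all 5 control libraries, and the difference was -0.26 (SE 0.09, adjusted p = 0.0313) with lenalidomide and -0.27 (SE 0.08, adjusted p = 0.0124) in DMSO. With lenalidomide the CDC20 call did not hold without any 1 of SPARK-ON lenalidomide replicates 1, 2 and 3 and control lenalidomide replicate 2 (adjusted p = 0.073 to 0.366), and without control lenalidomide replicate 2 the difference was -0.13. AURKB, the kinase of the chromosomal passenger complex, was at 87.7, 84.5 and 80.01 CPM with lenalidomide and 89.9, 99.8 and 87.8 CPM in DMSO in SPARK-ON cells, against 65.8 and 73.0 CPM with lenalidomide and 89.4, 68.7 and 75.3 CPM in DMSO in control cells. In AURKB the lines overlapped, since control DMSO replicate 1 stood within the range of SPARK-ON libraries, and the difference was 0.28 (SE 0.11, adjusted p = 0.0461) with lenalidomide and 0.25 (SE 0.09, adjusted p = 0.0411) in DMSO. The AURKB call did not hold without any 1 of SPARK-ON lenalidomide replicates 1, 2 and 3, SPARK-ON DMSO replicates 1, 2 and 3, control lenalidomide replicates 1 and 2 and control DMSO replicate 3 (adjusted p = 0.0532 to 0.258) with lenalidomide. In DMSO it did not hold without any 1 of SPARK-ON lenalidomide replicates 1, 2 and 3, SPARK-ON DMSO replicates 1 and 2 and control DMSO replicates 2 and 3 (adjusted p = 0.0516 to 0.182). AURKA, BUB1 and BIRC5, the survivin gene, were not called, with differences from -0.15 to 0.02 with lenalidomide and from -0.16 to 0.06 in DMSO.

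MYBL2 was lower in SPARK-ON cells, TOP2A was lower with a call that was lost in many alternatives, and FOXM1 and MKI67 were not called. MYBL2, the B-Myb factor that acts with the MuvB proteins on mitotic genes, was at 155, 156 and 156 CPM with lenalidomide and 171, 166 and 169 CPM in DMSO in SPARK-ON cells, against 189 and 239.5 CPM with lenalidomide and 229, 206 and 212 CPM in DMSO in control cells. In MYBL2 all 6 SPARK-ON libraries lay below all 5 control libraries. MYBL2 differed by -0.46 (SE 0.09, adjusted p = 0.000474) with lenalidomide and -0.36 (SE 0.08, adjusted p = 0.00159) in DMSO. Without control lenalidomide replicate 2 the difference with lenalidomide was -0.28 and still passed (adjusted p = 0.0219). FOXM1 was at 118 to 129.6 CPM in SPARK-ON cells, against 103 to 136 CPM in control cells, with -0.16 and 0.03. TOP2A, the topoisomerase that untangles replicated chromosomes, was at 914, 903 and 926 CPM with lenalidomide and 972, 916 and 971 CPM in DMSO in SPARK-ON cells, against 1256 and 989 CPM with lenalidomide and 938, 1271 and 1208 CPM in DMSO in control cells. For TOP2A the lines overlapped, with control DMSO replicate 1 the lowest of the control libraries, and the difference was -0.30 (SE 0.11, adjusted p = 0.0368) with lenalidomide and -0.26 (SE 0.10, adjusted p = 0.0418) in DMSO. The TOP2A call was lost in 9 of 20 alternatives with lenalidomide and 14 of 20 in DMSO. With lenalidomide it did not hold without any 1 of SPARK-ON lenalidomide replicates 1, 2 and 3, SPARK-ON DMSO replicates 1 and 3 and control lenalidomide replicate 1 (adjusted p = 0.0506 to 0.507). In DMSO it did not hold without any 1 of SPARK-ON lenalidomide replicates 1, 2 and 3, SPARK-ON DMSO replicates 1, 2 and 3 and control DMSO replicates 2 and 3 (adjusted p = 0.0599 to 0.183), nor under 6 other settings, among them another scaling (RLE), DESeq2, limma-voom and the groups compared alone. The difference with lenalidomide was -0.11 without control lenalidomide replicate 1 and -0.46 without replicate 2 of that group, and the difference in DMSO was -0.39 without control DMSO replicate 1. MKI67, which encodes the proliferation marker Ki-67, was at 613, 549 and 609.7 CPM with lenalidomide and 596, 574 and 574 CPM in DMSO in SPARK-ON cells, against 716 and 614 CPM with lenalidomide and 405, 757 and 745 CPM in DMSO in control cells. The lowest of the 11 values was that of control DMSO replicate 1, and MKI67 differed by -0.17 (SE 0.17, adjusted p = 0.452) with lenalidomide and -0.13 (SE 0.15, adjusted p = 0.54) in DMSO.

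CENPE and TPX2 were lower in SPARK-ON cells with lenalidomide, and CENPA and KIF11 were not called. CENPE was at 115, 123 and 125 CPM with lenalidomide and 138, 133 and 127 CPM in DMSO in SPARK-ON cells, against 241 and 157 CPM with lenalidomide and 115, 222 and 191 CPM in DMSO in control cells. The lines overlapped, since control DMSO replicate 1 lay as low as the SPARK-ON libraries. CENPE differed by -0.72 (SE 0.19, adjusted p = 0.00603) with lenalidomide and -0.41 (SE 0.17, adjusted p = 0.0678) in DMSO. The CENPE call with lenalidomide did not hold without control lenalidomide replicate 1 (adjusted p = 0.195), where the difference was -0.38. TPX2 was at 287, 262 and 277 CPM with lenalidomide and 300.3, 291 and 301 CPM in DMSO in SPARK-ON cells, against 331 and 327 CPM with lenalidomide and 306, 329.9 and 347 CPM in DMSO in control cells. For TPX2 all 6 SPARK-ON libraries lay below all 5 control libraries, and the difference was -0.26 (SE 0.07, adjusted p = 0.0101) with lenalidomide and -0.14 (SE 0.07, adjusted p = 0.106) in DMSO. The TPX2 call with lenalidomide did not hold without any 1 of SPARK-ON lenalidomide replicate 2 and control lenalidomide replicate 1 (adjusted p = 0.0515 to 0.0519). CENPA, the histone of the centromere, had -0.21 and -0.18, and KIF11, the motor that separates the spindle poles, -0.21 and -0.07.

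The 2 classes had different medians between the lines. The median log2 difference of the 20 mitotic members was -0.24 with lenalidomide and -0.17 in DMSO. That of the 31 G1/S and replication members was -0.04 and 0.03, beside 0.02 and 0.01 for all genes. Of the mitotic members 12 were called with lenalidomide (2 higher, 10 lower) and 9 in DMSO (2 higher, 7 lower). Of the G1/S and replication members 9 were called with lenalidomide (4 higher, 5 lower) and 12 in DMSO (6 higher, 6 lower). Among all genes 19.7% were higher and 19.7% lower with lenalidomide, and 21.1% and 20.4% in DMSO. The counts depended on the scaling. With library size alone, 2 mitotic members were higher and 6 lower with lenalidomide, and 2 higher and 4 lower in DMSO. For the G1/S and replication members these counts were 9 higher and 3 lower with lenalidomide and 10 higher and 3 lower in DMSO. Under that scaling 25.2% of all genes were higher and 14.9% lower with lenalidomide, and 26.5% and 15.9% in DMSO. The class difference, mitotic median minus G1/S median, was -0.21 with lenalidomide and -0.20 in DMSO. With library size as the scaling it was again -0.21 and -0.20, and the medians with lenalidomide were 0.07 (G1/S) and -0.14 (mitotic). A change of scaling moves all genes by nearly the same amount, so the class difference could hardly change and this is no check of it. The class difference is given without a test, because the genes were chosen with results of these data known.

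The same could be seen in single libraries. Each member was centred on its mean over all 11 libraries and averaged within its class. The mitotic mean minus the G1/S mean was -0.14, -0.13 and -0.06 with lenalidomide and -0.07, -0.07 and -0.08 in DMSO in SPARK-ON cells. In control cells it was 0.14 and 0.11 with lenalidomide and 0.09, 0.11 and 0.10 in DMSO. The SPARK-ON libraries all lay below 0 and the control libraries all above it. In this difference, treated and untreated libraries of the same line overlapped. Summed over its class, the mitotic level was 4422 to 4610 CPM with lenalidomide and 4628 to 4732 CPM in DMSO in SPARK-ON cells, against 5210 to 5537 CPM with lenalidomide and 4957 to 5535 CPM in DMSO in control cells. TOP2A and MKI67, long transcripts on which the control libraries disagree, weigh most in the mitotic sum. The summed G1/S and replication level was 4126 to 4209 CPM with lenalidomide and 4247 to 4345 CPM in DMSO in SPARK-ON libraries. In control libraries it was 4148 to 4247 CPM over both treatments. Each sum was thus lower in every treated SPARK-ON library than in every untreated one, while treated and untreated control libraries overlapped. These shifts were not tested. With lenalidomide against DMSO, the class difference was -0.04 for SPARK-ON cells, against 0.00 for control cells. The value in SPARK-ON cells was -0.08 when the shallowest library, replicate 3 of the treated group, was left out, and -0.02 without SPARK-ON lenalidomide replicate 1 or 2 or SPARK-ON DMSO replicate 1. In control cells it was -0.04 without control lenalidomide replicate 1, 0.05 without control lenalidomide replicate 2 and 0.03 without control DMSO replicate 1.

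**Figure D5:**
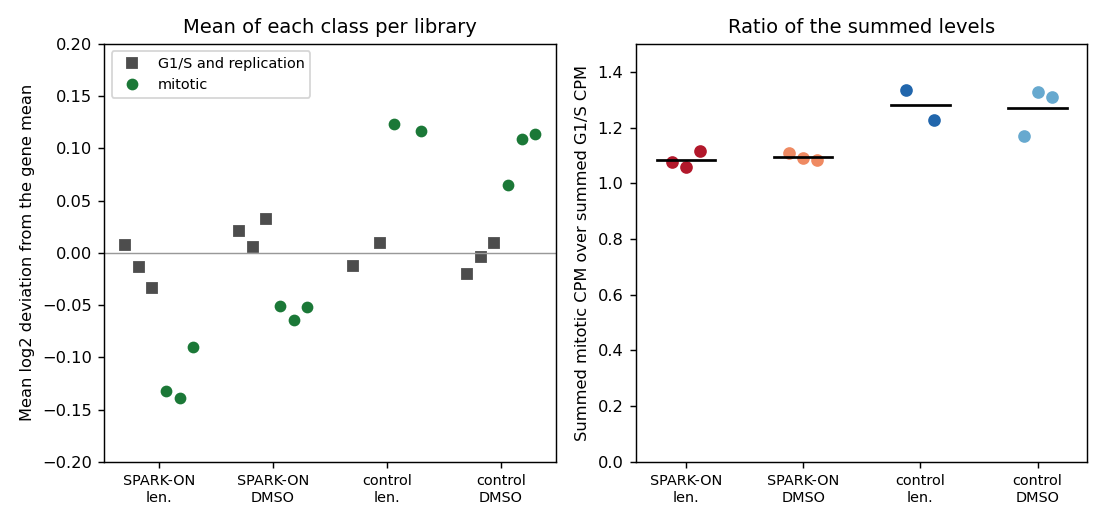
Left, the mean log2 deviation of the G1/S and replication members (squares) and of the mitotic members (circles) from their means over 11 libraries, 1 point per library. Right, the ratio of the summed mitotic CPM to the summed G1/S and replication CPM per library (points) and its group mean (bars). TOP2A and MKI67 weigh most in the mitotic sum. The mitotic class lies below 0 in all SPARK-ON libraries and above 0 in all control libraries, while the G1/S class lies between -0.03 and 0.03 in both lines.

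The promoters of 4 genes from the lists that moved apart are shown, CDC25A and CDC6 among those higher in SPARK-ON cells and CCNB2 and CDK1 among those lower. They are the 250 bases before the RefSeq gene start (GRCh38.p14), 5′ to 3′ in the direction of the gene, with capitals for the E2F sites, CHR elements and CCAAT boxes that were found. Classical E2F sites bind the E2F factors and CHR elements bind the DREAM and MuvB proteins, while CCAAT boxes bind NF-Y.
CDC25A (chr3:48188418-48188667, minus strand): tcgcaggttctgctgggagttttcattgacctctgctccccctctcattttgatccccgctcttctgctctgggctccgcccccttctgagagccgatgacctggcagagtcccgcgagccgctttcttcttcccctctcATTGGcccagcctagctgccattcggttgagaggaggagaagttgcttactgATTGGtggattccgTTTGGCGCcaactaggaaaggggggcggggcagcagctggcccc
CDC6 (chr17:40287629-40287878, plus strand): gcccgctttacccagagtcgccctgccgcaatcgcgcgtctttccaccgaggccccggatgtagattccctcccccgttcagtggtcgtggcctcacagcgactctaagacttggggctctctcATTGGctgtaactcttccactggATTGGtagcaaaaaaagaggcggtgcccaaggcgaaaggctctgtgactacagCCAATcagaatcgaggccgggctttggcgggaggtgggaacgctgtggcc
CCNB2 (chr15:59104896-59105145, plus strand): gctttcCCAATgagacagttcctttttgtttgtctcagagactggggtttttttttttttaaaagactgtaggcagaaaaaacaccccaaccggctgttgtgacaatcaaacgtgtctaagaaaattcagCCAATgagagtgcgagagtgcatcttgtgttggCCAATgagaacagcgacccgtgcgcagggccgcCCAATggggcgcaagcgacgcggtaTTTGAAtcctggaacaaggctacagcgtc
CDK1 (chr10:60778081-60778330, plus strand): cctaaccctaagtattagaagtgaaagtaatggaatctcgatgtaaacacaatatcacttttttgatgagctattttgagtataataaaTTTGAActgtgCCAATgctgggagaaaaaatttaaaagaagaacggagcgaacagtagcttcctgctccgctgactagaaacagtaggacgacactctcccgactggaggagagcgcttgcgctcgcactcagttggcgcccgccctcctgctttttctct

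The window of CDC25A held 1 E2F site and 2 CCAAT boxes, that of CDC6 had 3 CCAAT boxes, that of CCNB2 had 1 CHR element and 4 CCAAT boxes, and that of CDK1 had 1 CHR element and 1 CCAAT box. Across all members, the search used the window from 250 bases before to 50 after the start, of 300 bases, on both strands, and 42 of the 52 members matched by symbol. The E2F sites searched were TTTCGCGC, TTTGGCGC, TTTCCCGC and TTTGCCGC. They were found in 15 of 26 G1/S and replication promoters (57.7%) and 2 of 16 mitotic promoters (12.5%), and in 3.33% of 27305 promoters of all genes. CDC6 and CDK1 are among these, each with 1 E2F site that lies in the bases after the start and so outside the stretches printed. The CHR elements searched were TTTGAA and TTCGAA. They were found in 2 of 26 G1/S and replication promoters (7.69%), 9 of 16 mitotic promoters (56.25%) and 16.6% of all. CCAAT was found in 15 of 26 (57.7%), 11 of 16 (68.75%) and 35.7%. The E-box CACGTG, the letters that MYC family proteins prefer, was found in 5 of 26 (19.2%), 3 of 16 (18.75%) and 7.43%. None of these motifs contains another. The 4 promoters printed do not stand for all members that kept their call in every alternative. CCND3 and ORC1, also higher in SPARK-ON cells, had no E2F site in the window. CCNA2, MYBL2 and POLD1, also lower, had no CHR element, and CCND1 was not among the members matched. A match describes the letters and does not show that a factor binds there.

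Other genes of the same stages were counted from a wider list of 50 G1/S and replication genes and 50 mitotic genes. With lenalidomide in both lines, 24 of the mitotic genes were lower in SPARK-ON cells and 1 was higher, and in DMSO 17 were lower and 1 was higher. Of the G1/S and replication genes, 13 were lower and 3 higher with lenalidomide, and 11 lower and 6 higher in DMSO. In the background 19.7% of genes were lower with lenalidomide and 20.4% in DMSO, against 48% and 34% of the mitotic genes and 26% and 22% of the G1/S and replication genes. For higher genes the background was 19.7% and 21.1%. It stood against 2% and 2% of the mitotic genes and 6% and 12% of the G1/S and replication genes. With library size alone as the scaling, 15 mitotic genes were lower and 3 higher with lenalidomide, and 10 lower and 5 higher in DMSO. Of the G1/S and replication genes, 7 were then lower and 6 higher with lenalidomide, and 8 lower and 9 higher in DMSO. Of all genes, 14.9% were then lower and 25.2% higher with lenalidomide, and 15.9% lower and 26.5% higher in DMSO. The medians with lenalidomide and in DMSO were -0.23 and -0.15 for the mitotic genes, and -0.10 and -0.03 for the G1/S and replication genes. With library size alone they were -0.12 and -0.06 for the mitotic genes, and 0.00 and 0.06 for the G1/S and replication genes. NDC80, a kinetochore protein that holds microtubules, was at 87.2, 98.2 and 100.2 CPM with lenalidomide and 98.8, 95.7 and 101 CPM in DMSO in SPARK-ON cells, against 192 and 175 CPM with lenalidomide and 182, 172 and 169.9 CPM in DMSO in control cells. For NDC80 all 6 SPARK-ON libraries lay below all 5 control libraries, and it differed by -0.95 (SE 0.08, adjusted p = 4.53e-08) with lenalidomide and -0.82 (SE 0.07, adjusted p = 5.96e-08) in DMSO. The mitotic gene that was higher in both was HMMR, a spindle protein, at 0.34 (SE 0.09, adjusted p = 0.00805) and 0.52 (SE 0.08, adjusted p = 5.96e-05). Among replication genes RPA1, a subunit of the factor that coats single-stranded DNA, was higher, at 0.55 (SE 0.07, adjusted p = 7.85e-06) and 0.52 (SE 0.06, adjusted p = 2.92e-06). LIG1, the ligase that joins Okazaki fragments, was lower, at -0.68 (SE 0.09, adjusted p = 1.47e-05) and -0.64 (SE 0.08, adjusted p = 6.56e-06). Lenalidomide over DMSO called 0 of these 100 genes in either line, with edgeR as above.

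CDK inhibitors gave one difference with lenalidomide that depended on the fit. CDKN1A encodes p21, which blocks cyclin and CDK complexes, and was at 51.4, 52.1 and 47.9 CPM with lenalidomide and 38.9, 33.7 and 39.1 CPM in DMSO in SPARK-ON cells, against 26.0 and 31.5 CPM with lenalidomide and 35.8, 31.1 and 35.1 CPM in DMSO in control cells. In SPARK-ON cells the 3 treated libraries all lay above the 3 untreated ones, a change of 0.44 (SE 0.10, adjusted p = 0.161) that was not called. The same change of 0.44 passed in the fit of the 6 SPARK-ON libraries alone (adjusted p = 2.98e-05), at 0.45 in DESeq2 (adjusted p = 0.0144), and at 0.45 without control DMSO replicate 1 (adjusted p = 0.017). Both alternatives that left out a pair of libraries gave a call too, at 0.48 (adjusted p = 0.0486) and 0.44 (adjusted p = 0.000335). The other 10 libraries left out singly gave adjusted p = 0.0968 to 0.939. In control cells the change was -0.24 (SE 0.11, adjusted p = 1). The difference between the responses was 0.68 (SE 0.15, adjusted p = 0.725). It was 0.80 without both control DMSO replicate 1 and control lenalidomide replicate 2, a fit that left 1 control library with lenalidomide. Between the lines with lenalidomide CDKN1A differed by 0.82 (SE 0.11, adjusted p = 1.48e-05), against 0.13 (SE 0.10, adjusted p = 0.302) in DMSO. CDKN1B, the p27 gene, was lower in SPARK-ON cells, at -0.57 (SE 0.09, adjusted p = 9.9e-05) with lenalidomide and -0.60 (SE 0.08, adjusted p = 1.33e-05) in DMSO, and so was CDKN2D, the p19 gene of the INK4 family, at -1.03 (SE 0.20, adjusted p = 0.000417) with lenalidomide and -0.81 (SE 0.18, adjusted p = 0.00112) in DMSO. CDKN1C, the p57 gene, had 0 reads in all 5 control libraries and 0.396 to 0.917 CPM in SPARK-ON libraries. CDKN2A, CDKN2B and CDKN2C had 0 reads in all 11 libraries.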

How the data were processed

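Polyadenylated RNA of SH-EP cells was sequenced, and the deposited values are raw read counts per gene, made by the authors; the submitters' processing notes name FastQC, fastp, HTSeq, edgeR and the hg38 genome. The annotation release, aligner and strand setting are not given in the sources used here. Libraries (11 in all) were grouped by their labels, which do not say whether replicates are separate cultures, so p-values measure the spread between these libraries, which may be technical. In all, 3 columns were not used because their names did not match a label, so the planned comparison with baseline cells was not made.

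Genes were kept with edgeR 4.0.16 (filterByExpr, minimum count 10), scaled by TMM and tested by the quasi-likelihood test in 1 layout of the 4 groups, with Benjamini-Hochberg adjustment over 16056 genes and a threshold of 0.05. The steps were tested on simulated counts. Gene symbols came from GENCODE 29. DESeq2 1.42.0 and limma 3.58.1 (voom), other scalings, no filter, a replicate block, a threshold of 0.01, only the groups compared and each library left out were alternatives. The omission of pairs of libraries was added after the data were seen. The members, wider lists and rules for named genes were chosen with earlier results of these data known. By the rule for named genes, each called member was given in every library, and the 4 with the smallest p where fewer than 4 were called. Other pathway genes were named from the 4 with the smallest p per class and comparison. Sums over 2 further marker lists are not reported here.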

Additional observations from a re-analysis of the deposited data

How the results depend on the processing

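Of the values computed under each alternative for 50 pairs of a gene and a comparison (the members called between the lines, and the 4 of smallest p with lenalidomide over DMSO in each line), 880 kept their direction and side of the threshold, 119 lost the call, 1 gained it and 0 reversed. Calls gained by other members are not in these counts. At an adjusted p of 0.01, the members called between the lines came to 13 with lenalidomide and 13 in DMSO, against 21 and 21. Leaving out single libraries gave 15 to 26 with lenalidomide and 15 to 25 in DMSO, and fitting the groups compared alone gave 22 and 17. Without both control DMSO replicate 1 and control lenalidomide replicate 2 they were 25 and 31, and without both SPARK-ON lenalidomide replicate 3 and control DMSO replicate 1 they were 27 and 25. With lenalidomide over DMSO in control cells, 1 member was called without both control DMSO replicate 1 and control lenalidomide replicate 2. The class difference between the lines with lenalidomide was -0.17 with CCNA2 and MYBL2 counted as G1/S genes, -0.23 as a mean, -0.23 without both SPARK-ON lenalidomide replicate 3 and control DMSO replicate 1, and -0.23 to -0.18 without single libraries. In DMSO it was -0.17 with CCNA2 and MYBL2 moved and -0.23 to -0.14 without single libraries. Lenalidomide over DMSO gave -0.0844 in SPARK-ON cells without that pair and -0.0843 to -0.0173 without single libraries. In control cells it gave -0.044 to 0.0492 without single libraries, 0.0267 without that pair and 0.0322 without control DMSO replicate 1 and control lenalidomide replicate 2. The cause was not tested. Replicate numbers did not pair the libraries (median correlation of deviations 0.0057 over 15 pairs, from -0.18 to 0.04); with a replicate block 15 members were called with lenalidomide, 16 in DMSO and 0 in each lenalidomide comparison. Depth limits genes of few reads, such as E2F2, whose intervals were among the widest.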
